A study of Homo sapiens with 4 samples.

Results

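Olfactory receptor (OR) genes are the largest gene family of mammals, and chromosome 11 carries more of them than any other human chromosome. Each encodes a receptor with 7 membrane-spanning helices, mostly from a single coding exon. An olfactory sensory neuron of the nose expresses 1 OR gene from 1 allele and keeps the rest in compact heterochromatin, and most cells outside the nose do not transcribe the family. The OR genes of chromosome 11 served here to measure how many accessible sites an adrenocortical cell line has beside a family it is not known to use. Expression of these genes was not analysed here. Members were the protein-coding genes of GENCODE on chromosome 11 (GRCh37, the assembly behind hg19) whose symbol is OR followed by a number, letters and a number. There were 171 of them among 1317 protein-coding genes of the chromosome and 20163 of the nuclear genome. Another 6 OR symbols of the chromosome that end in further letters were left out of both sides of the comparison, which leaves 1140 other coding genes.

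The study set 2 doses of SF-1, the nuclear receptor encoded by NR5A1 that drives steroid hormone synthesis, side by side in H295R/TR SF-1 cells. These cells are a single subclone of the H295R adrenocortical tumour line that carries SF-1 under a doxycycline-inducible promoter, and both groups carry that construct. The first group had basal SF-1 expression and the second had SF-1 overexpression after 3 days of doxycycline. FAIRE-seq, which recovers DNA that formaldehyde has not fixed to nucleosomes, gave 1 library and 1 list of sites per group, and 2 libraries of input DNA were not analysed here.

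The lists held 34423 sites at basal SF-1 expression and 31219 with SF-1 overexpression, of which 1481 and 1320 lay on chromosome 11. Both gave a position and a running peak number, but no height, since the score was 1000 for every site, and sequencing depth is unknown. Peak number divided by the length of the list is used below as the place in the list, where a low percentage means an early entry. With 1 library per group no difference between the groups could be tested, and all intervals are 95% intervals that cover counting error only.

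Only 9 loci within 10 kb of an OR gene body held a FAIRE site. Of these, 3 were in both lists, 3 in the basal list alone and 3 in the overexpression list alone, so each list had 6 sites. Sequences of 5 loci that overlap no annotated exon are shown because they make up most of the accessible DNA listed beside the family, and because the shared and the unshared loci can be read against each other. Capitals mark matches to the motifs of SF-1 (CAAGGTCA or CAAGGCCA) or of the insulator protein CTCF, searched on both strands of GRCh37. The 3 loci found in both lists were these, 1 upstream of OR5M10 and 2 at OR8A1.
OR5M10 upstream, chr11:56351001-56351199, plus strand: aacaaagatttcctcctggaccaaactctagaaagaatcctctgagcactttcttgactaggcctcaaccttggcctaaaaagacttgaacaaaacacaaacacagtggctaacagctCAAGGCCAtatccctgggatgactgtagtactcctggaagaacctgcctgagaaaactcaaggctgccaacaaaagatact
OR8A1 upstream (its first 300 bases), chr11:124426801-124427100, plus strand: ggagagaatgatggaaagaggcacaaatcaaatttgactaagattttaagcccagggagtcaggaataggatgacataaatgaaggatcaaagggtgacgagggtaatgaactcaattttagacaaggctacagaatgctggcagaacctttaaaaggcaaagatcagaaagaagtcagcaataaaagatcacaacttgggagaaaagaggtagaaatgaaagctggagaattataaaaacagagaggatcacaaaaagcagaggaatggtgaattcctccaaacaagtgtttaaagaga
OR8A1 intron, chr11:124447701-124447849, plus strand: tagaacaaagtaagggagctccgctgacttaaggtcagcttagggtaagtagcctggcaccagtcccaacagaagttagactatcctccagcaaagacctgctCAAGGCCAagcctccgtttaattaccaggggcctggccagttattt

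Of the unshared loci without an exon, these 2 came from the overexpression list.
OR5A2 upstream, chr11:59197501-59197599, plus strand: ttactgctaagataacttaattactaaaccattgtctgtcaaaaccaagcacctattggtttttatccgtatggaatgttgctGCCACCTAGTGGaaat
OR10D3 downstream, chr11:124065901-124066099, plus strand: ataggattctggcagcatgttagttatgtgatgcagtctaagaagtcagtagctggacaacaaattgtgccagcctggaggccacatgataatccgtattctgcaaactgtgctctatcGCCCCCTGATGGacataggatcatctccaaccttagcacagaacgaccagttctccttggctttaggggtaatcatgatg

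Another 3 loci overlapped exons and are given by position only. They were chr11:5025751-5025899 in OR51L1 (basal list), chr11:56184601-56184749 at the 3′ end of OR8U3 (basal list), and chr11:6947551-6947749 downstream of OR2D3 (overexpression list).

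The OR windows, that is the gene bodies with 10 kb on either side, merged into 92 stretches of 3.54 Mb in all. They held 6 sites in each list, which is 1.70 sites per Mb (exact Poisson interval 0.623 to 3.69). The windows of the other coding genes of chromosome 11 held 1114 sites at basal SF-1 expression, or 14.97 per Mb (14.1 to 15.9), and 1015 with SF-1 overexpression, or 13.6 per Mb (12.8 to 14.5). The density near OR genes was thus 0.113 times that near other coding genes in the basal list (exact binomial interval 0.0415 to 0.247) and 0.124 times for overexpression (0.0455 to 0.272). OR genes made up 13.0% of the coding genes of the chromosome and their windows 2.70% of its sequence, against 0.405% of its sites in the basal list and 0.455% for overexpression. In bases, sites covered 0.338 and 0.324 of every 1000 bases of the OR windows, against 3.81 and 3.57 of every 1000 bases of the other coding windows.

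The density near OR genes was also below that of sequence without coding genes. Chromosome 11 outside all coding windows held 6.79 sites per Mb at basal SF-1 expression (6.11 to 7.53) and 5.63 with SF-1 overexpression (5.01 to 6.30). Sequence farther than 100 kb from any coding gene held 5.51 (4.67 to 6.45) and 4.10 (3.38 to 4.93). Against that gene-poor sequence the ratio of the OR windows was 0.308 in the basal list (0.111 to 0.686) and 0.414 for overexpression (0.149 to 0.929). OR pseudogenes, the decayed copies that lie among the intact genes, added 1.77 Mb of windows not shared with a coding gene. Those windows held 4 sites in the basal list, or 2.25 per Mb (0.614 to 5.77), and 3 in the overexpression list, or 1.69 per Mb (0.349 to 4.94), which overlap the values of the intact genes. The plot of sites per Mb by class of sequence shows these values together with the families described further below.

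**Figure D1:**
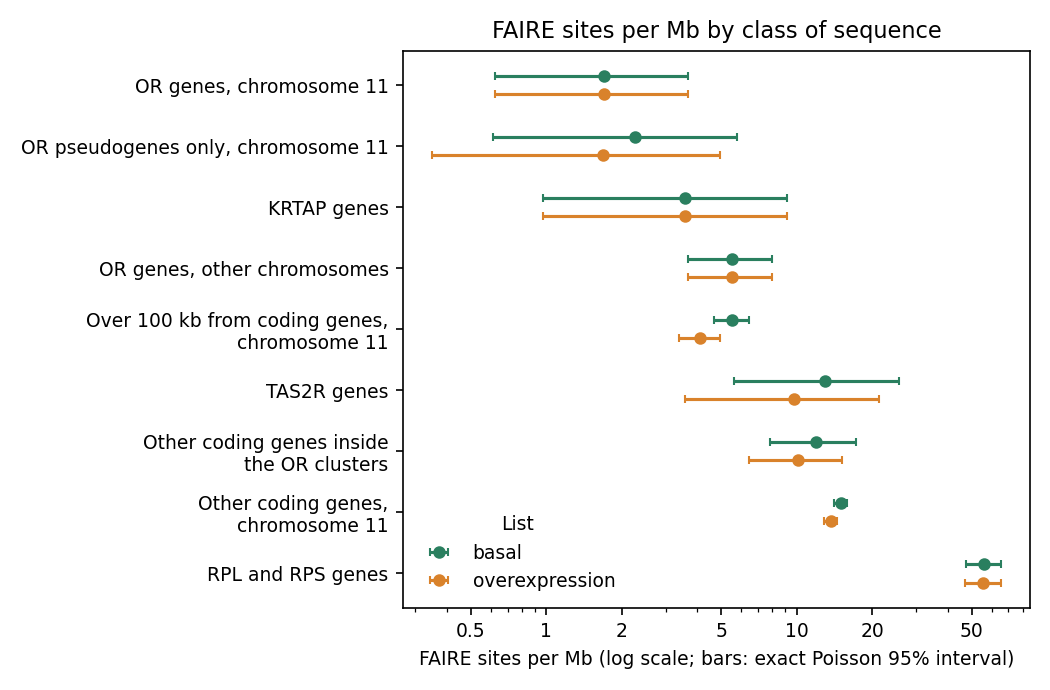
FAIRE sites per Mb (horizontal log axis) in 9 classes of sequence at basal SF-1 expression (green) and with SF-1 overexpression (orange), with points for the density and bars for the exact Poisson 95% interval. OR genes of chromosome 11 and their pseudogenes lie lowest at 1.69 to 2.25 sites per Mb, while other coding genes of the chromosome lie at 14.97 and 13.6.

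Counted by gene, 6 of the 171 OR genes had a site within 10 kb in each list, which is 3.51% (exact Clopper-Pearson interval 1.30 to 7.48). OR gene bodies were short, with a median of 1.07 kb and 97 genes under 2 kb. A longer body takes in more sequence, and the shares by gene were not adjusted for gene length, unlike the densities per Mb. Among all 1317 coding genes of the chromosome the share was 56.6% in the basal list and 59.1% for overexpression. Of the 1140 other coding genes, 739 (64.8%) had a site at basal SF-1 expression and 772 (67.7%) with SF-1 overexpression, so the OR share was different by -61.3 percentage points (Newcombe interval -64.6 to -56.5) and -64.2 points (-67.5 to -59.4). A site in either list lay near 10 OR genes (5.85%), with a background of 65.1%. Sites in both lists lay near 2 OR genes, OR5M10 and OR8A1 (1.17%), with a background of 50.6%. OR8A1 had the most, with 2 sites in each list, and no other OR gene had more than 1 in a list.

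No OR gene had a site over its annotated 5′ end in either list. A count of 0 of 171 allows a share of up to 1.75% when 3 counts are taken as the limit, and up to 2.13% by the exact interval, while 25.1% of the other coding genes had their 5′ end covered in the basal list and 26.6% for overexpression. Measured from the edge of the site, OR8U3 alone had a site within 1 kb of the 5′ end, in the basal list. That site ends over the 3′ end of this short gene of 0.975 kb. Among the other coding genes 36.1% and 38.1% had a site that close.

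The nearest site was usually far away. From the gene body it was a median of 125 kb for OR genes at basal SF-1 expression (quartiles 57.8 and 202 kb, largest 596 kb) and 263 kb with SF-1 overexpression (quartiles 90.6 and 658 kb, largest 1159 kb). For the other coding genes the median was 0.0265 kb and 0 kb. The nearest site was more than 100 kb away for 101 OR genes (59.1%) in the basal list and 125 (73.1%) for overexpression, against 6.67% and 7.63% of the other coding genes. Genes of a cluster share their nearest site, so these counts are not independent. Distances from gene bodies were likewise not adjusted for gene length.

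**Figure D2:**
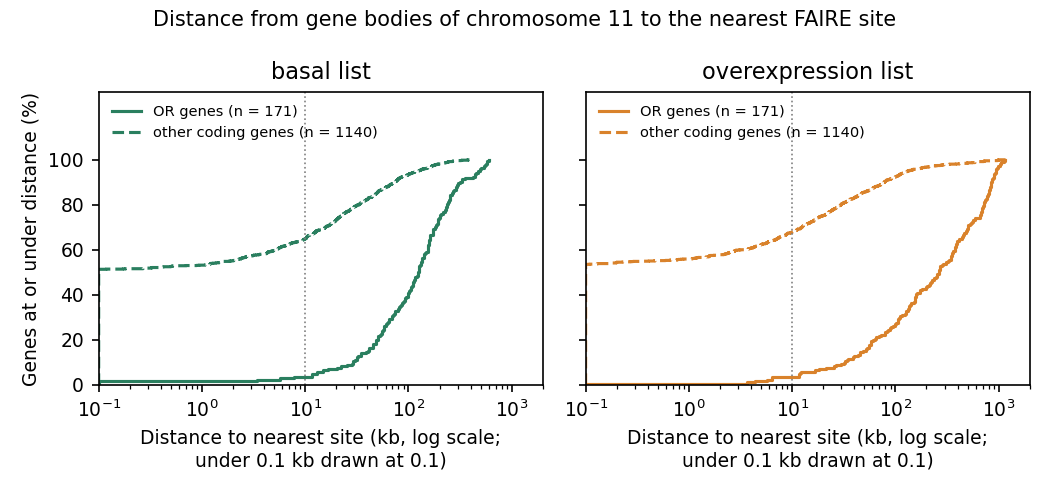
Cumulative share of chromosome 11 genes (vertical axis, %) by distance from the gene body to the nearest FAIRE site (horizontal log axis, kb) for 171 OR genes (solid) and 1140 other coding genes (dashed), basal list on the left and overexpression list on the right, with the dotted line at 10 kb. The OR curves reach 3.51% at 10 kb, where the other genes reach 64.8% and 67.7%, and the OR median lies at 125 kb and 263 kb.

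The family fell into 8 groups when neighbours up to 1 Mb apart were joined. The largest, from OR52B4 to OR10A3 on the short arm (chr11:4388493-7963255), held 67 OR genes and 1 site near them in each list, at OR51L1 in the basal list and beyond OR2D3 in the overexpression list. The group from OR4A16 to OR5AK2 (chr11:55110677-56757318) held 48 OR genes, with 3 sites at basal SF-1 expression and 1 with SF-1 overexpression. The group from OR9Q1 to OR10V1 (chr11:57791353-59481318) held 21, with 0 sites in the basal list and 1 for overexpression, near OR5A2. The group from OR6X1 to OR8A1 (chr11:123624288-124452838) held 22, with 2 sites in the basal list and 3 for overexpression. The remaining 4 groups, with 7, 3, 2 and 1 OR genes, held no site, which by 3 counts allows 21.1 to 85.4 sites per Mb in windows this short and so says little.

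Coding genes of other families lie within the spans of these same groups, and they had sites. Their 63 genes and 2.27 Mb of windows held 27 sites at basal SF-1 expression, or 11.9 per Mb (7.85 to 17.3), and 23 with SF-1 overexpression, or 10.1 per Mb (6.43 to 15.2). The OR density was 0.143 times that value in the basal list (0.0481 to 0.352) and 0.167 times for overexpression (0.0557 to 0.423). These ratios do not compare direct neighbours only. Joining OR genes up to 1 Mb apart puts long stretches without OR genes inside the groups. Genes from LPXN to DTX4 lay in such a stretch, between OR5B21 and OR5AN1. Genes from FHIP1B to MRPL17 lay in another, between OR52W1 and OR2AG2. A site within 10 kb was listed for 28 of the 63 genes (44.4%) and for 33 (52.4%). These sites were spread unevenly, with 19 and 14 in the group from OR9Q1 to OR10V1 (14 such genes). The group from OR52B4 to OR10A3 had 8 in each list (45 such genes). Among its genes from TRIM21 to TRIM22, which lie among OR genes, none had a site that close with SF-1 overexpression. At basal SF-1 expression TRIM68, ENSG00000239920, TRIM5 and TRIM22 did. CNGA4, a subunit of the olfactory cyclic-nucleotide-gated channel that lies inside the largest OR group, had a site in both lists over its 5′ end. The same site overlapped FHIP1B, a gene of another family that ends just before CNGA4 begins, so it cannot be assigned to CNGA4 alone. The beta-globin genes HBB, HBD, HBG1, HBG2 and HBE1, red-cell genes embedded between the OR genes of the same group, had none within 10 kb in either list.

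Long stretches without any site ran through the OR groups. A stretch of 1.20 Mb that reached into the group from OR4A16 to OR5AK2, without a site in either list, held 28 OR genes and 2 other coding genes, and was the fourth longest such stretch of the chromosome once N bases were left out. With SF-1 overexpression the stretch chr11:4116100-6255800 was 2.14 Mb long, the third longest in that list, and held 55 OR genes (32.2% of the family) with 22 other coding genes, the globin genes among them. In the basal list the same stretch was broken by sites at TRIM68, OR51L1 and TRIM5. Most of the longest stretches held no OR gene, however: among the 10 longest, 2 contained OR genes in the basal list and 3 for overexpression.

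Taken one by one, the 9 loci had few features in common. OR8A1 carried both of its sites in both lists. Its upstream locus measured 349 bp at basal SF-1 expression and 299 bp with SF-1 overexpression, and its place in the lists was 17.1% and 19.1%. It was the widest and the earliest-listed site of the family in either list, and it lay 9407 bp and 9457 bp upstream of the gene. GC content there was 37.2% and 38.5%, and none of the motifs searched was found. The locus in the OR8A1 intron measured 149 bp in both lists, with a place of 66.6% and 69.5% and a GC content of 50.3%. It held 1 match to the SF-1 motif.

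The OR5M10 locus was 199 bp wide in both lists, at 55.8% of the basal list and 46.4% of the overexpression list. It lay 5738 bp upstream of OR5M10, with a GC content of 44.7% and 1 match to the SF-1 motif. The nearest coding gene outside the family was 110 kb away. All 3 shared loci thus lay clear of annotated exons and far from genes of other families, the closest being PANX3 at 33.5 kb from the OR8A1 intron site.

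Of the basal-only loci, the site in OR51L1 was 149 bp wide, at 85.7% of the list, with 41.6% GC and a match to the CTCF motif, and fell in an exon outside the coding sequence. The OR8U3 site was 149 bp wide, at 76.8%, with 30.2% GC and no match, and also lay within 10 kb of OR5AL1. For these loci the nearest site of the overexpression list was 910 kb and 86.0 kb away.

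Of the loci listed with SF-1 overexpression alone, the one beyond OR2D3 stood apart. It was 199 bp wide, at 67.4% of the list, with 63.8% GC, and lay 4 bp from the start of ZNF215, a zinc finger gene whose 5′ end it covered. OR2D3 was 4326 bp away, so the site belonged to the OR windows by distance only. The OR5A2 locus was 99 bp wide and at 99.8% of the list among its last entries, with 36.4% GC and a CTCF match, 3615 bp upstream of OR5A2 and also within 10 kb of OR5A1. The OR10D3 locus was 199 bp wide, at 68.1%, with 46.7% GC and a CTCF match, 6414 bp downstream of the gene. The nearest basal sites were 93.9 kb, 107 kb and 126 kb away.

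As a group the OR sites were narrow. In each list 5 of 6 were at most 199 bp wide (83.3%), against 45.7% of the sites near other coding genes in the basal list and 42.9% for overexpression. The difference was 37.6 percentage points (Newcombe interval -2.15 to 51.6) and 40.5 points (0.674 to 54.5), so it exceeded counting error in the overexpression list only, and there narrowly. The median width was 174 bp and 199 bp, against 249 bp near other coding genes in both lists.

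Entries near OR genes also tended to come late. The median place was 71.7% of the basal list and 67.8% of the overexpression list, against 51.3% and 49.3% near other coding genes. In the first 50% of the list were 1 of 6 and 2 of 6, against 48.8% and 51.4%, and the intervals of both differences included 0 (-46.1 to 7.62 and -41.9 to 18.7 percentage points).

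**Figure D3:**
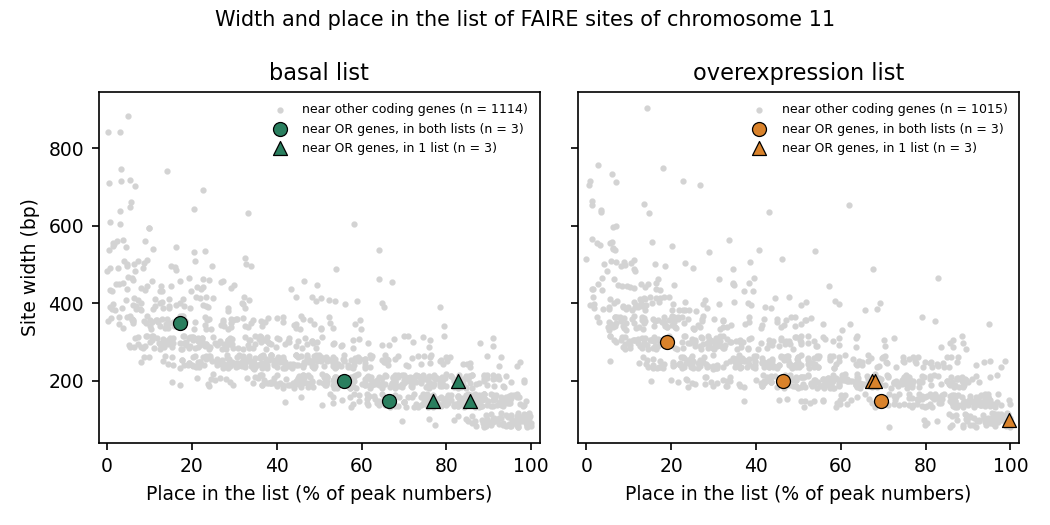
Width (vertical axis, bp) against place in the list (horizontal axis, peak number as % of the list) for chromosome 11 sites near other coding genes (grey, jittered vertically) and for the 6 sites near OR genes in each list, as circles where the site was in both lists and as triangles where it was in 1. In each list 5 of the 6 OR sites are at most 199 bp wide, and the circle at 17.1% and 19.1% is the upstream site of OR8A1.

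In each list 3 of 6 OR sites (50%, exact interval 11.8 to 88.2) overlapped a site of the other list. Near other coding genes the shared part was 57.4% in the basal list and 63.3% for overexpression. The differences were -7.36 percentage points (-38.7 to 24.0) and -13.3 points (-44.6 to 18.1), which were not detectable with so few sites. Among other coding sites in the last 50% of the list, where most OR sites stood, 37.4% and 45.6% were shared, and among those of at most 199 bp 37.5% and 44.6%. The number of sites with SF-1 overexpression over that at basal SF-1 expression was 1 near OR genes (0.267 to 3.74), 0.911 near other coding genes (0.836 to 0.993) and 0.907 in the whole lists. With so few sites the value near OR genes lay on either side of 1 in other settings, at 0.333 with windows of 2 kb, 1.67 without the group from OR4A16 to OR5AK2 and 2 in the first 50% of each list, and each interval included 1.

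By position, 3 sites lay upstream of the nearest OR gene in each list. Of the others, 2 lay within and 1 downstream in the basal list, while 1 lay within and 2 downstream in the overexpression list. Place was assigned by the centre of the site. The basal site called downstream was that of OR8U3, which overlapped the gene body and was the only OR site to touch a coding exon. Distance to a start site was taken here from the centre of the site. No OR site of the basal list was centred within 1 kb of an annotated start site of any gene. A count of 0 of 6 allows a share of up to 50% by 3 counts and 45.9% by the exact interval. Near other coding genes the share by centre was 47.5%, a difference of -47.5 percentage points (-50.4 to -8.34). The OR8U3 site was centred 1033 bp from the start of its gene and its edge lay 959 bp away, so the 0 depends on the measure. In the overexpression list it was 1 of 6, the ZNF215 site, against 54.5%, a difference of -37.8 points (-51.8 to 1.99).

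Mean GC content was lower near OR genes, both in the sites and in the sequence around them. For the sites no interval of the difference was computed, and distance to start sites was not taken into account. The sites had a mean GC content of 38.7% ± 8.56 (SD, n = 6 sites) in the basal list and 46.7% ± 9.85 (SD, n = 6 sites) in the overexpression list, against 52.3% ± 13.2 and 55.7% ± 12.2 near other coding genes. The windows themselves had 37.7% GC against 43.0%. Because the number of sites moved with GC across the chromosome, the density was compared within classes of 1 kb bins. In bins of 35 to 40% GC, which held 38.0% of the OR sequence, there were 2.23 OR sites per Mb (0.460 to 6.52) in the basal list against 8.70 (7.43 to 10.1) in other coding windows, and 1.49 (0.180 to 5.38) against 4.999 (4.05 to 6.10) in the overexpression list. In bins under 35% GC there was 1 OR site in each list, or 0.877 per Mb (0.0222 to 4.89), against 7.16 and 2.86. In bins of 40 to 45% GC no OR site was centred in either list, which allows up to 4.08 per Mb by 3 counts and 5.01 by the exact interval, against 10.3 and 8.89.

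With rates of the other coding windows applied bin by bin, 32.6 sites would have been centred in the OR windows in the basal list and 21.4 for overexpression, and 5 were found in each. The observed number was 0.154 times that value (0.0499 to 0.358) and 0.234 times (0.0758 to 0.545), compared with 0.0946 and 0.104 without the GC correction. Leaving out all bins within 1 kb of an annotated start site as well gave 0.208 (0.0674 to 0.484) and 0.271 (0.0738 to 0.693). The interval of the ratio stayed below 1 after both steps. How much of the sequence is unique in the reference was also compared, by counting exact words of 32 bases. The FAIRE aligner is not given, so this does not measure where reads could be mapped. In the OR windows 87.2% of such words occurred once in the genome, against 87.7% in the other coding windows. In the 12 listed OR sites 100% did, and no value was computed for sites near other coding genes.

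**Figure D4:**
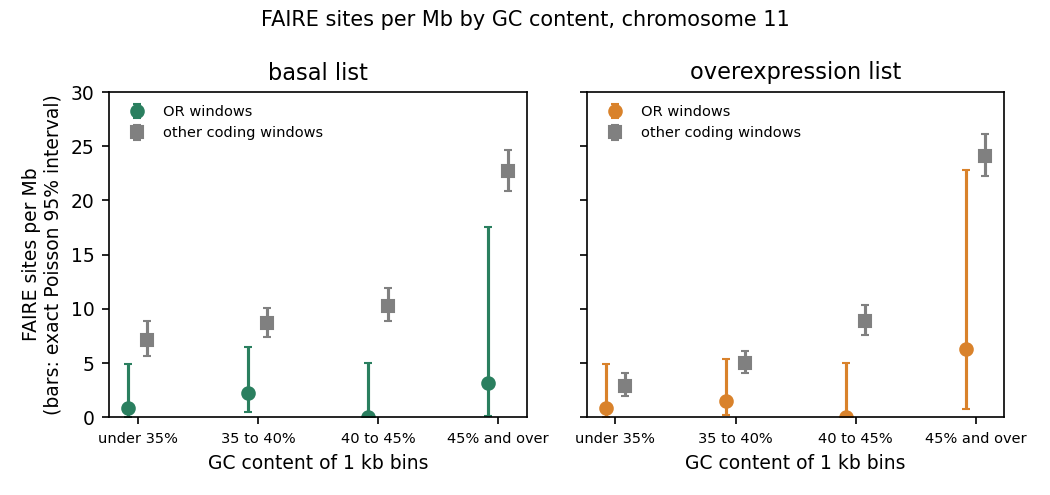
FAIRE sites per Mb (vertical axis) by GC content of 1 kb bins (4 classes on the horizontal axis) for OR windows (coloured circles) and other coding windows (grey squares) of chromosome 11, basal list on the left and overexpression list on the right, with bars for the exact Poisson 95% interval. OR windows lie below other coding windows in each class of both lists, with separate intervals throughout the basal list and, for overexpression, in the class of 40 to 45% GC alone.

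Motif matches near OR genes are described by counts. Of the 9 loci, 5 held a match to at least 1 of the motifs searched, namely SF-1 in 2, CTCF in 3, and AP-1 (TGACTCA or TGAGTCA) in none, where 0 of 9 allows up to 33.3% by 3 counts and 33.6% by the exact interval. Among all chromosome 11 sites, 33.7% of the basal list and 30.8% of the overexpression list held one of these motifs. The share was 12.0% in both lists for SF-1, 17.4% and 15.7% for CTCF, and 6.75% and 5.76% for AP-1. With a share that low for AP-1, 0 of 9 says little. In stretches of 199 bp cut from the OR windows, 5.28% held one, 1.60% for SF-1, 0.705% for CTCF and 3.06% for AP-1. Both SF-1 matches read CAAGGCCA and both were in loci present at either dose, OR5M10 and the OR8A1 intron, while the CTCF matches were all in loci listed at 1 dose. A match is a run of letters in the reference and not a measured binding site.

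OR genes of other chromosomes had more sites than those of chromosome 11. The 228 such genes, on 17 chromosomes, had 28 sites in each list, or 5.51 per Mb (3.66 to 7.97), which is 3.25 times the density on chromosome 11 (1.32 to 9.59). A site lay within 10 kb of 28 of them (12.3%) in each list. The density was 5.12 and 4.78 per Mb on the 4 chromosomes with at least 20 OR genes, and 6.04 and 6.504 on the other 13. Single chromosomes differed. Chromosome 1, with 63 OR genes and 1.34 Mb of windows, had only 4 sites at basal SF-1 expression and 3 with SF-1 overexpression. Chromosome 7 had 0 and 1, and chromosome 17 had 0 in each list. Chromosome 12 had 5 and 7 sites in 0.368 Mb. With the windows of other coding genes cut out on both sides, the ratio was 2.09 in the basal list (0.816 to 6.33) and 2.75 for overexpression (1.02 to 9.25), so in the basal list the difference no longer exceeded counting error. The clustered KRTAP genes, which encode hair keratin-associated proteins, had 3.57 sites per Mb (0.973 to 9.14) in each list, 2.10 times the OR value (0.437 to 8.87). The TAS2R genes, the bitter taste receptors, had 13.0 (5.62 to 25.7) and 9.77 (3.58 to 21.3), which was 7.67 times (2.33 to 26.8) and 5.76 times (1.54 to 21.5). The ribosomal protein genes RPL and RPS, which every cell transcribes, had 55.9 (47.3 to 65.6) and 55.5 (47.0 to 65.2).

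As a set, genes that act with OR genes in olfactory neurons had sites about as often as coding genes of the whole genome. Gene length and use of these genes in other tissues were not taken into account. Of 25 genes for signalling, receptor transport and OR gene choice, 16 (64.0%, exact interval 42.5 to 82.0) had a site within 10 kb in each list, against 70.2% and 71.1% of all coding genes of the genome. Both lists had a site near 14 of them. GNAL, the G protein alpha subunit of olfactory neurons, had 1 site at basal SF-1 expression and 5 with SF-1 overexpression. Of the transcription factors that act on OR gene choice, EBF1 had 3 and 4 sites and LHX2 1 in each list, and LDB1, the partner of LHX2, had 2 in each. EBF2 and EBF3, of the same family as EBF1, had no site in the basal list, where the nearest was 383 kb and 137 kb away, and 1 each with SF-1 overexpression. ADCY3, the olfactory adenylyl cyclase, had 1 site in the basal list and none in the overexpression list. No site in either list lay near CNGA2, ANO2, OMP, RTP1, RTP2, EBF4 or SLC24A4, among them the channels CNGA2 and ANO2, the receptor transporters RTP1 and RTP2, and OMP, the marker protein of mature olfactory neurons. OMP also lies on chromosome 11, with its nearest site 35.8 kb away in both lists.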

How the data were processed

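FAIRE-seq site lists of H295R/TR SF-1 cells, 1 per SF-1 dose, were grouped by the submitters' labels. The authors deposited 1 browser track per library, with coordinates on hg19, a running peak number and a score that was 1000 for every site. The submitters' processing notes name CASAVA 1.8, while the FAIRE aligner, peak caller and threshold are not given in the sources used here. Deposited starts were read as 0-based and converted to 1-based positions on GRCh37, with genes from GENCODE release 44 mapped to that build. Densities are sites overlapping merged windows per Mb without N bases. The limit for a count of 0 is 3 counts. Shares carry exact Clopper-Pearson, densities exact Poisson, ratios exact binomial and differences Newcombe 95% intervals. Libraries are 1 per condition, so no p-value was computed. A site was shared when it overlapped the other list by at least 1 bp. GC was taken in 1 kb bins and standardised in classes of 2.5 percentage points. The CTCF motif, of 12 letters, was searched with 1 mismatch allowed, and the SF-1 and AP-1 motifs with none. Named sites were those near OR genes that overlapped a body, were shared, or were among the 5 widest or earliest, together with 25 olfactory signalling genes, the globin genes and non-OR genes starting within 1 kb of such a site. The OR5A2 site fell outside this rule and was added after its values were seen. The members and lists were chosen with earlier results of these data known. Alternatives varied the window, the site filter, the overlap rule, the clusters and the gene models. Functions were tested on simulated sites. Python 3.11.15, numpy 2.4.6, scipy 1.17.1 and pandas 2.3.3 were used. The sequence and the single values of 1 basal-only locus are not reported here.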

Additional observations from a re-analysis of the deposited data

How the results depend on the processing

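There were 142 alternative values for 15 results. For the density ratios against other coding genes the interval stayed below 1 throughout. Of the other values 17 lay outside the interval of the reported value. For width and GC content the range of the reported sites stood in for that interval. The median of a subset of the same sites cannot leave this range, so those settings could show no change. The density near OR genes relative to other coding genes ranged from 0.0348 to 0.350 in the basal list and from 0.0363 to 0.339 in the overexpression list, over 21 alternatives per list, 8 of these alternative values over both lists having been added after seeing the data. The highest ratios came from whole cluster spans, 0.350 (0.252 to 0.474) and 0.339 (0.238 to 0.468), which lie outside the reported intervals and count the sites of the other genes in the spans too. Without the group from OR6X1 to OR8A1 the ratio for overexpression was 0.0707. With sites at least as wide as the pooled median of 249 bp, 0.585% of OR genes had a site in each list, the shared part was 100% in both lists (1 site each), the share of overexpression sites within 1 kb of a start site was 0%, and OR genes of other chromosomes had 2.76 and 1.77 sites per Mb. With the upper 50% of each list by peak number, 0.585% of OR genes had a site in the basal list and 1.17% for overexpression, and the shared part of the basal list was 100% (1 site). A window of 2 kb gave 0.585% of OR genes and a shared part of 100% in the overexpression list, again from 1 site. A window of 50 kb gave 19.9% and 15.2% of OR genes (34 and 26 genes) and 10.03 and 10.7 sites per Mb near OR genes of other chromosomes. With the windows of other coding genes cut out, the share of overexpression sites within 1 kb of a start site was 0%. The cause of these changes was not tested. No paired analysis was possible because each condition has 1 library and no test was run. Unknown depth, the absence of peak heights and 1 library per condition limit all comparisons between the lists. Having 6 sites per list limits what can be said of width, place, GC content and the shared part.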
